A study of Mus musculus with 2 samples.

Results

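The genes described here are 10 genes of monocyte recruitment and of macrophage growth factor signalling, taken by symbol from the gene list of the count matrices: Ccl2, Ccl7, Ccl12, Ccr2, Cx3cr1, Csf1, Csf1r, Csf2, Csf2ra and Csf2rb. All 10 were among the 32285 genes listed, and they were chosen with earlier results of these data known. They were followed in living CD45+ cells sorted from subcutaneous B16-F10 melanomas in mice, 14 days after injection of the tumour cells. The KO library came from tumours of DGAT1-knockout B16-F10 cells and the WT library from tumours of WT B16-F10 cells, with 3 tumours behind each group and 1 droplet single-cell library per group. The labels give neither the sex, age or strain of the mice nor any drug treatment, and the genotype belongs to the implanted tumour cells, so the sorted immune cells of both groups carry no labelled edit. No file ties a cell to its tumour, so the 3 tumours of a group cannot be separated, no difference below has a replicate check, and no test was made between the groups.

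Monocytes are made in the bone marrow and leave it through CCR2, a receptor for the chemokines CCL2, CCL7 and, in the mouse, CCL12. In a tumour they mature into macrophages, lose CCR2 as they do so, and depend on CSF1 acting through its receptor tyrosine kinase CSF1R. CSF2, the granulocyte-macrophage growth factor made by activated T cells among others, acts through an alpha chain (Csf2ra) and a beta chain (Csf2rb) that is shared with the receptors of IL-3 and IL-5. CX3CR1 is the receptor of the membrane-bound chemokine fractalkine, and it marks non-classical monocytes and many tissue macrophages.

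After filters and removal of called doublets, 10937 cells of the KO library and 9063 of the WT library were kept, with a median of 10748 UMIs per cell in the KO library and 14063 in the WT library. The libraries shared 24 cell barcodes. Cells were put into classes by gates on fixed marker genes, none of them among the 10 genes, and 14 gated classes plus the cells outside the gates held at least 50 cells in each library. Macrophage-like cells numbered 1563 in the KO library (14.3% of kept cells) and 2993 in the WT library (33.0%), while classical monocyte-like cells numbered 2119 (19.4%) in the KO library and 921 (10.2%) in the WT library. A class cut from a marker score is a range of cells: 8.13% of macrophage-like cells in the KO library and 5.88% in the WT library lay near the edge of the gate, as did 14.2% and 13.4% of classical monocyte-like cells in those libraries. Levels are counts per 1000000 UMIs of the class (CPM), with exact Poisson 95% intervals, and ratios are KO over WT with exact conditional intervals. All intervals cover counting error only, and levels of different genes are not compared. Free RNA was estimated at 2.26% of the UMIs of CD8 T-like cells in the KO library and 2.64% in the WT library. From macrophage genes alone it was 1.97% in the KO library and 2.15% in the WT library, and from melanoma genes alone 3.496% in the KO library and 3.501% in the WT library. Shares of UMIs from free RNA given below scale with this estimate. The estimate from CD8 T-like cells was applied to every class, and whether it holds in classes of lower depth was not tested. Median depth was 18708 UMIs (KO) and 22577 UMIs (WT) in CD8 T-like cells. In neutrophil-like cells it was 4193.5 UMIs (KO) and 4376 UMIs (WT), so free RNA shares in such classes may be off. Dgat1 stood at 43.9 CPM over all kept cells of the KO library and 37.3 CPM in the WT library. In melanoma-like cells it was at 19.5 CPM in the KO library and 28.6 CPM in the WT library (ratio 0.68), but the labels do not say which stretch of the gene was edited, so this checks neither label.

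Ccl2, Ccl7 and Ccl12 lie in one cluster on mouse chromosome 11 (mm10, plus strand), at chr11:82035571-82037453, chr11:82045712-82047525 and chr11:82101845-82103400. Ccr2 (chr9:124101950-124113557) and Cx3cr1 (chr9:119901616-120069879) are both on chromosome 9. Csf1 is at chr3:107741048-107760469, Csf2 at chr11:54247271-54249667, Csf2ra at chr19:61223957-61228429 and Csf2rb at chr15:78325752-78353847. Several overlap other genes: Ccl2 and Csf2 have antisense neighbours (Gm17268 and Gm12223), Csf1r overlaps Hmgxb3 on the other strand, and the annotated span of Cx3cr1 takes in Xirp1, Csrnp1, Ttc21a, Gorasp1 and Wdr48 among others. The sources used here do not say whether the counting used strand. Csf2rb shared 28.0% of its 31-base words with its neighbour Csf2rb2, which encodes the beta chain that mouse cells use for IL-3, so the split of reads between these genes is uncertain. Ccr2 shared 4.03% of its words with other genes, and Ccl2, Ccl7, Ccl12, Csf1 and Csf1r shared none with any other gene.

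Promoter sequences from RefSeq (GRCm38.p6), running from 250 bases before to 50 bases after the start that RefSeq uses, were at hand for 6 of the 10 genes. That start is the first base of the gene as given above for Csf1 and Ccl12, but lies 233 bases inside the gene for Ccr2 and 1583 bases inside it for Cx3cr1. The first 3 below belong to genes whose levels were at least 1.5-fold higher in macrophage-like cells of the KO library, and the fourth to the chemokine gene of the 3 that was furthest below the WT level over all cells. Capitals mark matches to motifs searched on both strands.
Ccr2, chr9:124101933-124102232, plus strand: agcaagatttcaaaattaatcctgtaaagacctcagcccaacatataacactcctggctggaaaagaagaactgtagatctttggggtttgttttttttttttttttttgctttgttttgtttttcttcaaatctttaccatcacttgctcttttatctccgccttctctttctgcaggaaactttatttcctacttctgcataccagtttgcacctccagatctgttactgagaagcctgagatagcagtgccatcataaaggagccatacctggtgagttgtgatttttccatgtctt
Cx3cr1, chr9:120068247-120068546, minus strand: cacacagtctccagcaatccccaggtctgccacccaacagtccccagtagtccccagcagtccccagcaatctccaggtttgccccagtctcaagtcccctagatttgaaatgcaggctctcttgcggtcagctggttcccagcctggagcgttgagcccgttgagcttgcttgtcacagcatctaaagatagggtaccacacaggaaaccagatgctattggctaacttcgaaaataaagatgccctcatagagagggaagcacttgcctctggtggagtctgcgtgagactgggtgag
Csf1, chr3:107760420-107760719, minus strand: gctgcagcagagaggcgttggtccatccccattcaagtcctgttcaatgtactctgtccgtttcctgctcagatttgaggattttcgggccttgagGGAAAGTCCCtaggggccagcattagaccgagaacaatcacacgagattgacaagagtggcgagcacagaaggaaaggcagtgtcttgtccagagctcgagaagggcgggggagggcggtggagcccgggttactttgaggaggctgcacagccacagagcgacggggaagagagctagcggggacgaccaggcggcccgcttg
Ccl12, chr11:82101595-82101894, plus strand: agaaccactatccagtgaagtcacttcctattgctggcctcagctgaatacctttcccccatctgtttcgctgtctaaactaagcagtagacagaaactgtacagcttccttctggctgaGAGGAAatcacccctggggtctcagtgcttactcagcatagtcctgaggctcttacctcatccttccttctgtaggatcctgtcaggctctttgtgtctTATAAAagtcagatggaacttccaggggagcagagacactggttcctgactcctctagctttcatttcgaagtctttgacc

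The motifs searched were a PU.1 core (GAGGAA), a C/EBP motif (TTGCNNAA), an AP-1 motif (TGANTCA), an NF-kB motif (GGGNN followed by TTTCC), an interferon response motif (GAAANN followed by GAAA) and a TATA box (TATAAA). The Csf1 window held the NF-kB motif on the reverse strand, a motif found in 1.63% of the 32851 promoters of the same length. The Ccl12 window held GAGGAA, found in 28.3% of promoters, and TATAAA, found in 13.6%. The Ccr2 and Cx3cr1 windows held none of the 6 letter patterns. No window was at hand for Csf2rb, and these matches describe letters only.

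The chemokine ligands were messages of macrophage-like and classical monocyte-like cells, and their levels within macrophage-like cells were nearly alike in the libraries. Ccl2, the main CCR2 ligand, stood at 1299.9 CPM in macrophage-like cells of the KO library and 1324 CPM in the WT library (ratio 0.982, 0.97 to 0.994). Ccl7, a CCR2 ligand that also acts on other chemokine receptors, had 860.1 CPM in the KO library and 874 CPM in the WT library there (ratio 0.984). Ccl12, the mouse CCR2 ligand closest to CCL2, had 645 CPM in the KO library and 720.1 CPM in the WT library (ratio 0.896, 0.881 to 0.911). None of the 3 ligands reached a 1.5-fold difference in these cells.

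In classical monocyte-like cells all 3 ligands were lower in the KO library, each by less than 1.5-fold. Ccl2 had 1572 CPM in the KO library and 1822 CPM in the WT library (ratio 0.863). Ccl7 had 536 CPM in the KO library and 661 CPM in the WT library (ratio 0.81, 0.787 to 0.834). Ccl12 showed the widest gap, with 262 CPM in the KO library and 372 CPM in the WT library (ratio 0.704, 0.676 to 0.733). A macrophage marker sum moved with these ligands: the 5 macrophage markers summed to 377 CPM in monocyte-like cells of the KO library and 565 CPM in those of the WT library, and their part in the ligand levels was not tested. Among monocyte-like cells with no UMI of a macrophage marker, a comparison added after seeing the data, the log2 ratio was 0.74 for Ccl2 and 0.81 for Ccl7 while that of Ccl12 was -0.85, so the direction of the first 2 turned with the choice of cells.

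Of the Ccl7 UMIs of monocyte-like cells, 14.7% in the KO library and 19.2% in the WT library lay in 10 cells. Cells thinned to 3000 UMIs each showed Ccl2 in 68.1% of macrophage-like cells of the KO library and 69.3% of the WT library, against 85.03% and 88.4% before thinning. In CD8 T-like cells, which are not a known source of CCL2, thinned shares were 6.37% in the KO library and 8.63% in the WT library. The ligands came together: 70.5% of thinned macrophage-like cells with a Ccl2 UMI in the KO library also had a Ccl7 UMI, against 22.6% of those without one, and the WT library gave 73.4% and 28.9%.

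In CD8 T-like cells the Ccl2 count was near the free RNA level. CD8 T-like cells had 19.3 CPM of Ccl2 in the KO library and 22.4 CPM in the WT library, and free RNA at its estimated share accounted for 69.0% and 90.5% of these UMIs in those libraries. With the share estimated from macrophage or melanoma genes alone, it was 60.3% to 107% in the KO library and 73.8% to 119.9% in the WT library. In non-classical monocyte-like cells Ccl2 had 38.9 CPM in the KO library and 219 CPM in the WT library, but 93.6% of the WT UMIs lay in 10 cells. In B-like cells Ccl2 had 209 CPM in the KO library and 40.9 CPM in the WT library, and 92.8% of the KO UMIs lay in 10 cells. Neutrophil-like cells had 34.0 CPM of Ccl7 in the KO library and 85.01 CPM in the WT library (ratio 0.399), counts of 47 and 50 UMIs. Free RNA came to 17.2% to 30.4% of these UMIs in the KO library and 10.8% to 17.6% in the WT library. Macrophage markers also differed in these cells, as given below, and their part in the Ccl7 level was not tested.

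Over all kept cells, the level a bulk measurement of the sort would give, the 3 ligands were lower in the KO library. Ccl2 stood at 542 CPM in the KO library and 682 CPM in the WT library (ratio 0.795). Ccl7 stood at 277 CPM in the KO library and 410.1 CPM in the WT library (ratio 0.676), and Ccl12 at 174 CPM in the KO library and 311 CPM in the WT library (ratio 0.561). The CD45+ classes alone leave out melanoma-like, fibroblast-like and endothelial-like cells. Over them the ratios were 0.709 for Ccl2, 0.601 for Ccl7 and 0.498 for Ccl12. Macrophage-like cells held 42.1% of the Ccl2 UMIs of the KO library and 70.6% of those of the WT library, and classical monocyte-like cells held 36.8% in the KO library and 15.6% in the WT library. The gap over all cells was wider than the gap within macrophage-like cells for each of the 3 ligands. Macrophage-like cells were 14.3% of kept cells in the KO library and 33.0% in the WT library, and how far that share sets the levels over all cells was not tested.

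**Figure D1:**
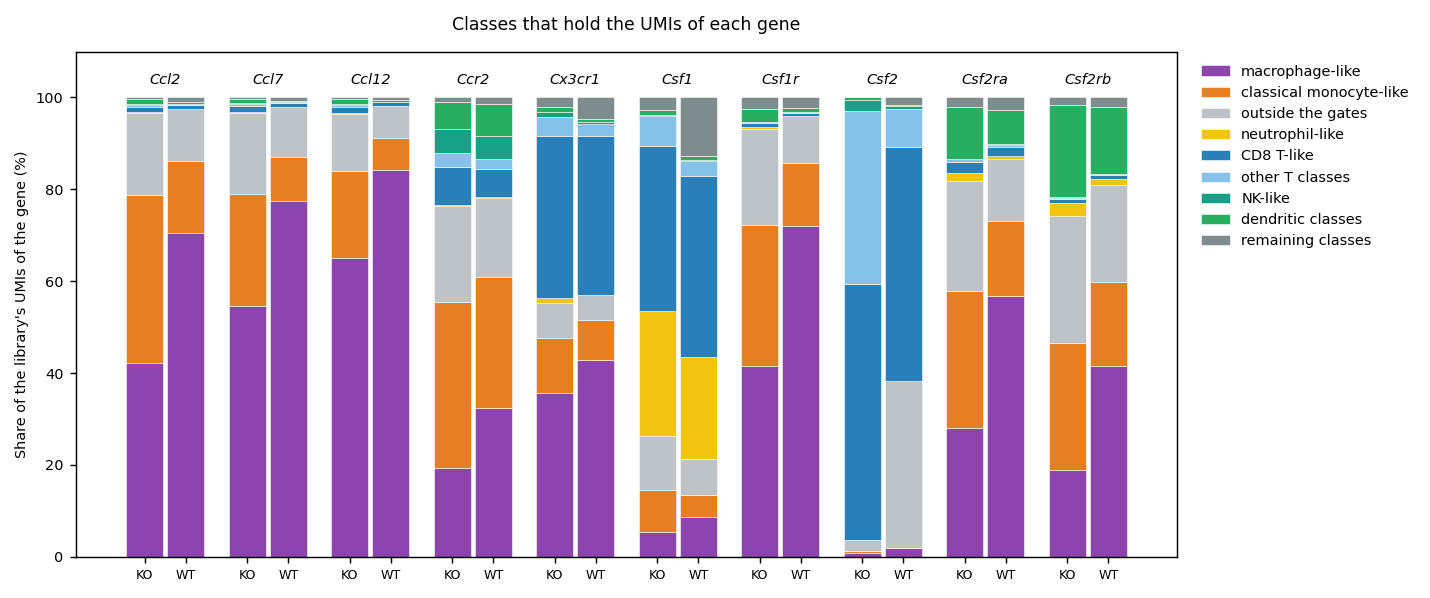
Stacked bars give the share of each gene's UMIs, in percent of all its UMIs in the kept cells of a library, that lay in each class, with the KO bar left of the WT bar for every gene. Macrophage-like cells held 42.1% of Ccl2 UMIs in the KO library and 70.6% in the WT library, and neutrophil-like cells held 27.1% of Csf1 UMIs in the KO library and 22.2% in the WT library.

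The 2 chemokine receptors were both higher in macrophage-like cells of the KO library. Ccr2 had 241 CPM (235 to 247) in macrophage-like cells of the KO library and 112 CPM (110 to 115) in those of the WT library, giving 2.14 as the ratio (2.07 to 2.21). Cx3cr1 had 91.5 CPM in macrophage-like cells of the KO library and 48.6 CPM in the WT library (ratio 1.89, 1.79 to 1.98). After thinning to 3000 UMIs, Ccr2 was seen in 38.0% of macrophage-like cells of the KO library and 21.4% of the WT library, against 55.3% and 36.4% unthinned. In melanoma-like cells, which should lack Ccr2, 1.10% of thinned cells in the KO library and 4.42% in the WT library held a UMI of it. Free RNA came to 1.85% of the Ccr2 UMIs of macrophage-like cells in the KO library and 2.34% in the WT library, and to 1.11% and 1.46% of the Cx3cr1 UMIs in those libraries. For Ccr2 the difference was seen in levels and in shares of cells.

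In classical monocyte-like cells the pair parted. Ccr2 stood at 619 CPM in the KO library and 616 CPM in the WT library, which gives a ratio of 1.005 with an interval of 0.976 to 1.03. Cx3cr1 had 42.7 CPM in the KO library and 62.0 CPM in the WT library (ratio 0.689, 0.623 to 0.762). Non-classical monocyte-like cells, which carry the highest Cx3cr1 level of any class, had 143 CPM in the KO library and 284 CPM in the WT library (ratio 0.503, 0.391 to 0.645), on 121 and 143 UMIs. With only barcodes above the UMI threshold of cell calling, a comparison added after seeing the data, the log2 ratio of Cx3cr1 in that class was 0.031, so the gap was gone. Macrophage-like and monocyte-like cells thus differed in opposite directions for Cx3cr1, and whether the ratios themselves differ beyond animal spread could not be tested with 1 library per group.

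The order of Ccr2 levels was led by classical monocyte-like cells in both libraries. NK-like cells came next, with 478 CPM in the KO library and 554 CPM in the WT library (ratio 0.863). cDC2-like cells followed with 273 CPM in the KO library and 346 CPM in the WT library. In the KO library non-classical monocyte-like cells (244 CPM, 212 to 280) and macrophage-like cells (241 CPM) had overlapping intervals, whereas in the WT library macrophage-like cells lay below cDC1-like cells (243 CPM), non-classical monocyte-like cells (201 CPM) and Treg-like cells (153 CPM). CD8 T-like cells had 54.0 CPM in the KO library and 31.03 CPM in the WT library, which gives a ratio of 1.74 (1.64 to 1.85). Free RNA accounted for 8.27% of these UMIs in the KO library and 8.48% in the WT library. Over all kept cells Ccr2 was at 218 CPM in the KO library and 126 CPM in the WT library (ratio 1.73), and over the CD45+ classes alone the ratio was 1.54.

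CD8 T-like cells were a second large source of Cx3cr1, holding 35.4% of its UMIs in the KO library and 34.6% in the WT library. Their level was 47.3 CPM in the KO library and 56.1 CPM in the WT library (ratio 0.844, 0.8 to 0.891). Over all kept cells Cx3cr1 stood at 45.1 CPM in the KO library and 41.3 CPM in the WT library (ratio 1.09), and over the CD45+ classes alone the ratio was 0.989.

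**Figure D2:**
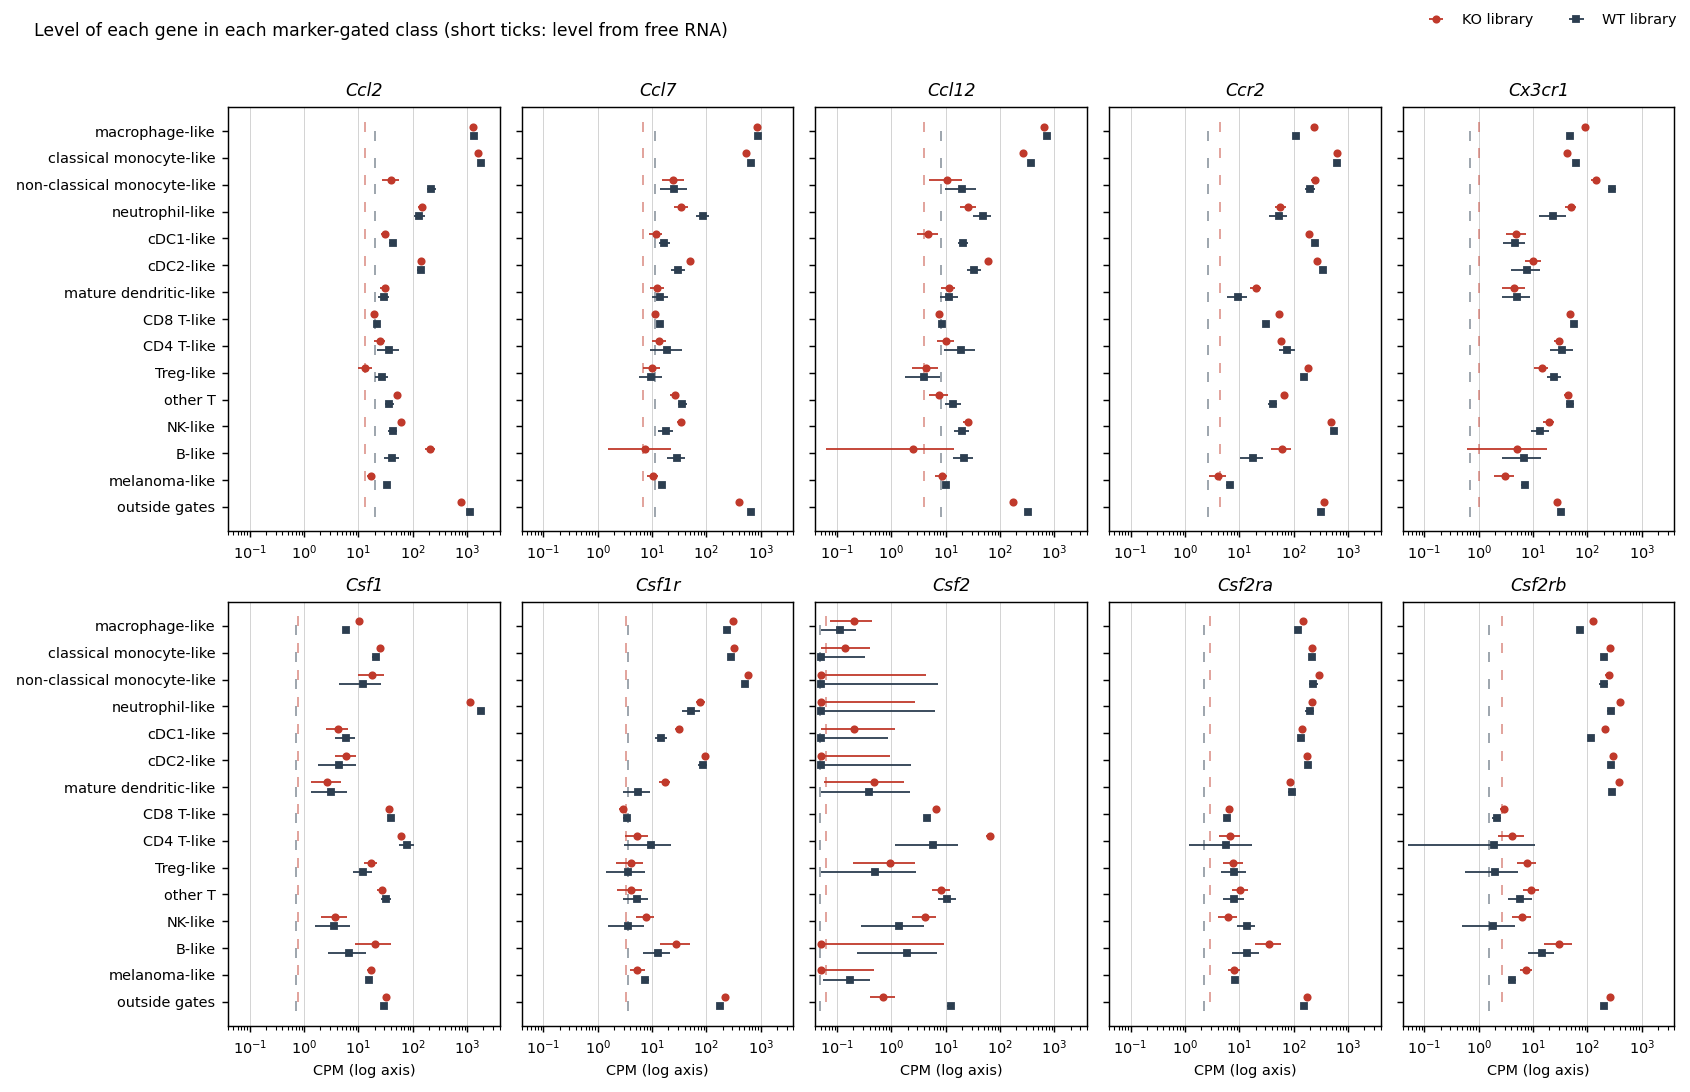
Points give the CPM of each gene (log axis) in each class, red circles for the KO library above dark squares for the WT library, with 95% Poisson intervals; short ticks mark the level that free RNA would give, and levels of 0 are drawn at the left edge. Ccr2 in macrophage-like cells stood at 241 CPM in the KO library and 112 CPM in the WT library, while in classical monocyte-like cells its points lie together at 619 and 616 CPM.

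Csf1, the macrophage growth factor, came chiefly from neutrophil-like and CD8 T-like cells. Neutrophil-like cells had 1112 CPM (1057 to 1169) in the KO library and 1811 CPM (1704 to 1923) in the WT library (ratio 0.614, 0.568 to 0.665). The direction turned with only barcodes above the UMI threshold of cell calling, where the log2 ratio was 0.16 on 19 cells in the KO library and 3 in the WT library. Neutrophil-like cells were few, 276 cells in the KO library and 116 in the WT library, yet held 27.1% of Csf1 UMIs in the KO library and 22.2% in the WT library. Thinned to 3000 UMIs, Csf1 was seen in 66.1% of neutrophil-like cells of the KO library and 79.2% of those of the WT library, against 71.7% and 77.6% unthinned. The 5 macrophage markers summed to 116 CPM in neutrophil-like cells of the KO library and 364 CPM in those of the WT library, a difference whose part in the Csf1 level was not tested.

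CD8 T-like cells had 36.2 CPM of Csf1 in the KO library and 39.1 CPM in the WT library (ratio 0.927), and held 36.04% of Csf1 UMIs in the KO library and 39.5% in the WT library. CD4 T-like cells had 61.4 CPM in the KO library and 78.5 CPM in the WT library, with intervals that overlap. Melanoma-like cells had 16.96 CPM in the KO library and 15.9 CPM in the WT library (ratio 1.07, 0.874 to 1.3). Classical monocyte-like cells had 24.5 CPM in the KO library and 20.7 CPM in the WT library (ratio 1.19). Macrophage-like cells had the lowest of these levels, 10.4 CPM in the KO library and 5.99 CPM in the WT library, with a ratio of 1.73 (1.49 to 2.01) on 305 and 415 UMIs. Over all kept cells Csf1 was at 33.9 CPM in the KO library and 25.2 CPM in the WT library (ratio 1.35). Neutrophil-like cells, whose own level was lower in the KO library, were 2.52% of kept cells in the KO library and 1.28% in the WT library.

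Csf1r, its receptor (chr18:61100598-61132149), was highest in non-classical monocyte-like cells, with 576 CPM in the KO library and 515 CPM in the WT library (ratio 1.12, 0.96 to 1.31). Macrophage-like cells had 314 CPM in the KO library and 239 CPM in the WT library (ratio 1.31, 1.28 to 1.35). Classical monocyte-like cells had 325 CPM in the KO library and 284 CPM in the WT library (ratio 1.14). cDC1-like cells had 31.6 CPM in the KO library and 14.7 CPM in the WT library (ratio 2.15), and 45.8% of those UMIs in the KO library and 60.3% in the WT library lay in 10 cells. The median score on the cDC1 markers was 0.492 in cDC1-like cells of the KO library and 0.797 in those of the WT library. Near the edge of that gate lay 21.7% of them in the KO library and 9.19% in the WT library. The part of this in the cDC1-like ratios was not tested. Csf1r in CD8 T-like cells, 2.90 CPM in the KO library and 3.40 CPM in the WT library, was at the free RNA level. Over all kept cells Csf1r was at 133 CPM in the KO library and 121 CPM in the WT library (ratio 1.10), whereas over the CD45+ classes alone, without melanoma-like cells, the ratio was 0.984.

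Csf2 was rare: 674 UMIs in the KO library and 433 in the WT library over all kept cells. T cell classes held 93.5% of these UMIs in the KO library and 59.1% in the WT library. CD8 T-like cells had 6.65 CPM in the KO library and 4.53 CPM in the WT library (ratio 1.47, 1.24 to 1.74), from 84 cells in the KO library and 63 in the WT library. Of these UMIs, 73.1% in the KO library and 66.8% in the WT library lay in 10 cells, so the interval understates the error. In the KO library 1 CD8 T-like cell alone held 150 UMIs, and without it, a comparison added after seeing the data, the KO level was 4.002 CPM and the direction turned (ratio 0.883). Without the highest cell of each library the levels were 4.002 CPM in the KO library and 3.78 CPM in the WT library (ratio 1.06). CD4 T-like cells held 219 UMIs in 13 cells of the KO library and 3 UMIs in 2 cells of the WT library, and the ratio was 11.2 with an interval of 3.78 to 54.8. In the KO library 1 of these cells held 68 of the 219 UMIs, so this interval also understates the error. Outside the gates 1 WT cell alone held 147 of the 158 Csf2 UMIs found there, against 15 UMIs in the KO library. NK-like cells had 17 UMIs in the KO library and 3 in the WT library.

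The receptor chains of CSF2 were both present in macrophage-like, monocyte-like, neutrophil-like and dendritic classes, and the beta chain differed more than the alpha chain. Csf2ra, the ligand-specific alpha chain, had 150.0 CPM in macrophage-like cells of the KO library and 121 CPM in the WT library (ratio 1.24, 1.2 to 1.29). In classical monocyte-like cells it had 221 CPM in the KO library and 218 CPM in the WT library (ratio 1.014, 0.966 to 1.07). Csf2rb, the shared beta chain, had 128 CPM (124 to 132) in macrophage-like cells of the KO library and 72.6 CPM (70.6 to 74.6) in the WT library (ratio 1.76, 1.69 to 1.84). In monocyte-like cells Csf2rb had 259.9 CPM in the KO library and 202 CPM in the WT library (ratio 1.29, 1.23 to 1.35).

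Csf2rb was also higher in most other myeloid classes of the KO library. Neutrophil-like cells had 391 CPM in the KO library and 269 CPM in the WT library (ratio 1.45). cDC1-like cells had 209.5 CPM in the KO library and 118 CPM in the WT library (ratio 1.77, 1.59 to 1.98). The gated cDC1-like cells differed in marker score between the libraries, as given above for Csf1r. Mature dendritic-like cells had 382 CPM in the KO library and 288 CPM in the WT library (ratio 1.33), while cDC2-like cells had 291 CPM in the KO library and 278 CPM in the WT library (ratio 1.05, 0.937 to 1.17). Of the 11 classes in which Csf2rb was measured, meaning at least 50 UMIs over both libraries, the interval of the ratio lay above 1 in 8 and below 1 in 0. These classes come from the same 2 libraries, and how often other genes reach such a count was not computed. They include CD8 T-like cells, where free RNA came to 82.2% to 146% of Csf2rb UMIs in the KO library. In the WT library it came to 57.9% to 94.0% there. Its neighbour Csf2rb2 gave ratios of 1.46 in macrophage-like cells, 1.29 in monocyte-like cells and 2.09 in cDC1-like cells. How the reads that these genes share were assigned was not tested. Over all kept cells Csf2rb was at 119 CPM in the KO library and 63.7 CPM in the WT library (ratio 1.87), and over the CD45+ classes alone the ratio was 1.66.

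Counted together, 9 of the 10 genes were measured in macrophage-like cells, and 4 of them (Ccr2, Cx3cr1, Csf1 and Csf2rb) were at least 1.5-fold higher in the KO library with 0 as much lower. Of the 13259 genes measured in that class, 12.4% were at least 1.5-fold apart, 6.56% higher and 5.80% lower. The median log2 ratio was 0.39 over the 9 genes and -0.01 over all measured genes. In classical monocyte-like cells 0 of 9 measured genes were 1.5-fold apart, where 9.19% of 11199 genes were, 5.77% higher and 3.42% lower. Their median log2 ratio was 0.01, beside 0.07 over all measured genes. In CD8 T-like cells all 10 were measured and 1, Ccr2, was 1.5-fold apart, where 10.2% of 13214 genes were. In neutrophil-like cells 1 of 9 was higher (Cx3cr1) and 3 were lower (Ccl7, Ccl12 and Csf1), where 11.7% of genes were higher by that much and 9.08% lower. Free RNA came to 13.6% to 24.1% of the Ccl12 UMIs there in the KO library and 14.2% to 23.1% in the WT library. In cDC1-like cells 2 of 7 were higher (Csf1r and Csf2rb) and 1 was lower (Ccl12), where 10.8% of genes were higher by that much and 4.25% lower. By the estimates from macrophage or melanoma genes alone, free RNA was 74.3% to 132% of these Ccl12 UMIs in the KO library. In the WT library it was 33.0% to 53.6% of them. The cDC1-like cells also differed in marker score between the libraries, as given above, and its part in these counts was not tested.

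In the other classes between 1 and 10 of the genes were measured. At least 1.5-fold apart were 2 of 6 genes in non-classical monocyte-like cells (Ccl2 and Cx3cr1, both lower, background 20.8%) and 2 of 8 in cDC2-like cells (Ccl7 and Ccl12, both higher, background 14.3%). In mature dendritic-like cells 2 of 7 were apart (Ccr2 and Csf1r, both higher), where 12.8% of genes were. By the estimates from macrophage or melanoma genes alone, free RNA was 53.1% to 86.3% of these Csf1r UMIs in the WT library. In the KO library it was 17.3% to 30.6% of them. For Ccr2 it was 19.6% to 34.8% in the KO library and 23.0% to 37.3% in the WT library. In NK-like cells Ccl7 was higher and Csf2ra lower, 2 of 6, where 10.7% were. In Treg-like cells Ccl2 and Cx3cr1 were lower, 2 of 5, where 12.9% were. In CD4 T-like cells Csf2 was higher, 1 of 6, where 24.7% were. In T cells outside a subset gate 3 of 9 were apart, Ccr2 and Csf2rb higher and Ccl12 lower, where 8.83% were. By those estimates free RNA was 47.2% to 83.6% (KO) and 49.1% to 79.7% (WT) of the Ccl12 UMIs there. In B-like cells Ccl2 alone was measured and was higher, where 18.8% of genes were apart. In melanoma-like cells Csf2rb was higher and Ccl2, Ccr2 and Cx3cr1 were lower, 4 of 9, where 14.7% were. In cells outside the gates Ccl7, Ccl12 and Csf2 were lower, 3 of 10, where 10.6% were. Some of these levels were near that of free RNA: its estimated share came to 109.6% of the Ccr2 UMIs of melanoma-like cells in the KO library and 39.4% in the WT library, and to 99.3% of the Ccl2 UMIs of Treg-like cells in the KO library and 75.3% in the WT library. With the estimates from macrophage or melanoma genes alone, Ccl2 in melanoma-like cells had 68.0% to 121% (KO) and 49.0% to 79.6% (WT). Ccl7 in cDC2-like cells had 11.6% to 20.5% (KO) and 30.3% to 49.2% (WT).

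**Figure D3:**
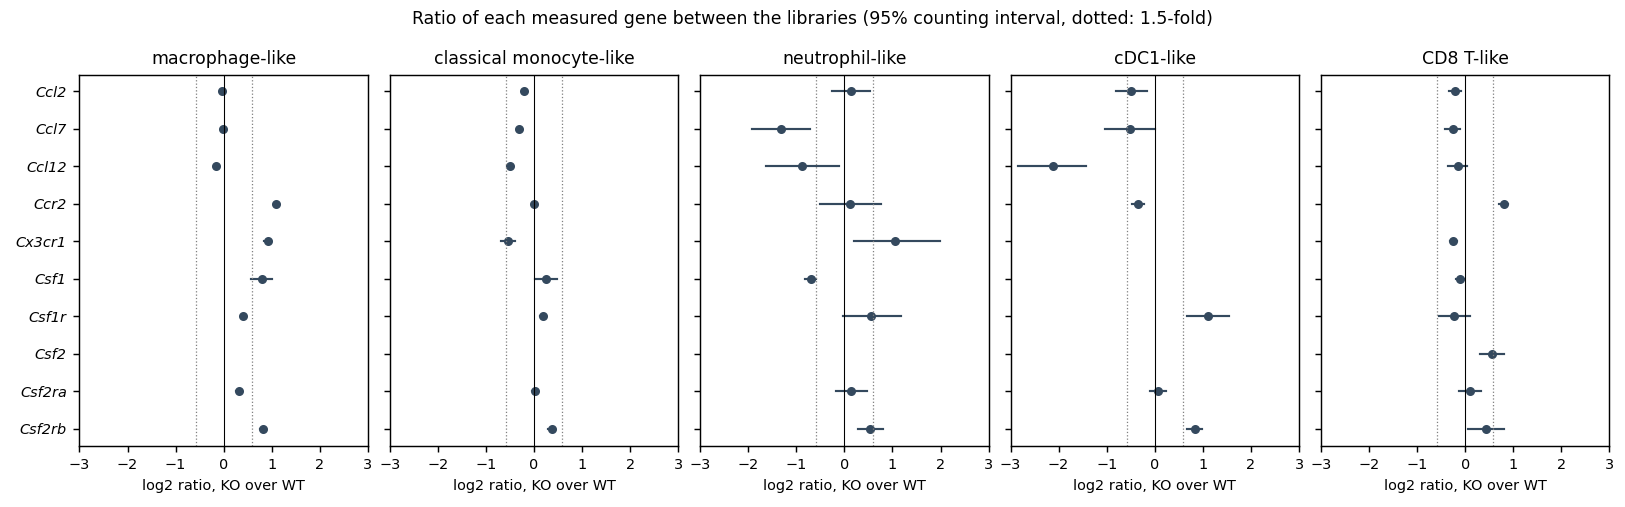
Points give the log2 ratio, KO over WT, of each measured gene in 5 classes, with 95% counting intervals and dotted lines at 1.5-fold. In macrophage-like cells Ccr2, Cx3cr1, Csf1 and Csf2rb lie to the right of the upper line and the 3 ligands near 0, and in classical monocyte-like cells no point lies outside the lines.

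Other markers moved with the receptor genes inside the macrophage-like gate. The 5 classical monocyte markers summed to 676 CPM in macrophage-like cells of the KO library and 585 CPM in those of the WT library, and 4 of the 5 were higher in the KO library. The 5 macrophage markers summed to 8089 CPM in the KO library and 10599 CPM in the WT library, with 0 of 5 higher in the KO library. The 5 melanoma markers summed to 67.0 CPM in the KO library and 158 CPM in the WT library. The classes also drew on clusters unequally: cluster 1, which received no class name, held 16.6% of macrophage-like cells of the KO library and 3.81% of those of the WT library, and cluster 3, named macrophage from the same markers, held 15.2% of the macrophage-like cells in the KO library and 23.9% in the WT library. Without macrophage-like cells that held any UMI of a classical monocyte marker, a comparison added after seeing the data, the log2 ratios were 1.62 for Ccr2, 0.70 for Cx3cr1, 1.16 for Csf1 and 1.15 for Csf2rb, as against 1.10, 0.91, 0.79 and 0.82 in all macrophage-like cells.

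To compare cells at a like C1q level, macrophage-like, monocyte-like and intermediate phagocytes were binned by the UMIs of the 3 C1q genes per 10000 UMIs of the cell. They numbered 4091 in the KO library and 4233 in the WT library. C1q is a complement component made by mature macrophages. C1qa itself differed by at most 1.06-fold between the libraries in the upper 5 bins, but stood at 12.6 CPM in the KO library and 24.9 CPM in the WT library in the lowest. C1qa is 1 of the 3 genes that set the bins, so its match within them does not show that the cells were at a like stage. Ccr2 fell with rising C1q in both libraries, and the fall was steeper in the WT library. Its ratio was 1.05 in the lowest bin, then 1.24, 1.33, 1.62, 1.70 and 1.95 in the highest, where it stood at 119.97 CPM in the KO library and 61.5 CPM in the WT library.

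Ly6c2, the classical monocyte marker, also fell with C1q but kept ratios between 0.962 and 1.14 in the lower 5 bins, with 1.76 in the highest. Cx3cr1 was lower in the KO library in the lowest 2 bins, with ratios of 0.656 in both, and higher in the upper 4, where ratios were 1.98, 1.80, 2.78 and 2.05. In the highest bin it had 135 CPM in the KO library and 65.9 CPM in the WT library. Csf1r was higher in the KO library in all 6 bins, with ratios of 1.12 to 1.48. Csf2rb was likewise higher in all 6, with ratios of 1.17 to 1.77, and fell with C1q in both libraries from the second bin on. Csf1 had ratios of 1.38, 1.76, 1.31, 1.32, 1.38 and 1.31 from the lowest bin to the highest. Its intervals included 1 in the bins that start at 10, 30 and 100 C1q UMIs per 10000.

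The ligands moved otherwise. Ccl12 rose with C1q in the KO library, with 243 CPM in the lowest bin and 994 CPM in the highest, whereas the WT library had 453 CPM in the lowest and 936 CPM in the highest. Its ratio was thus 0.537 in the lowest bin and 1.06 in the highest. Ccl7 had a ratio of 0.58 in the lowest bin and 1.31 in the highest. Ccl2 had a ratio of 0.739 in the lowest bin and ratios between 0.893 and 1.05 in the other 5. For each of the 3 ligands the lowest of the 6 ratios lay in the bin with the least C1q.

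**Figure D4:**
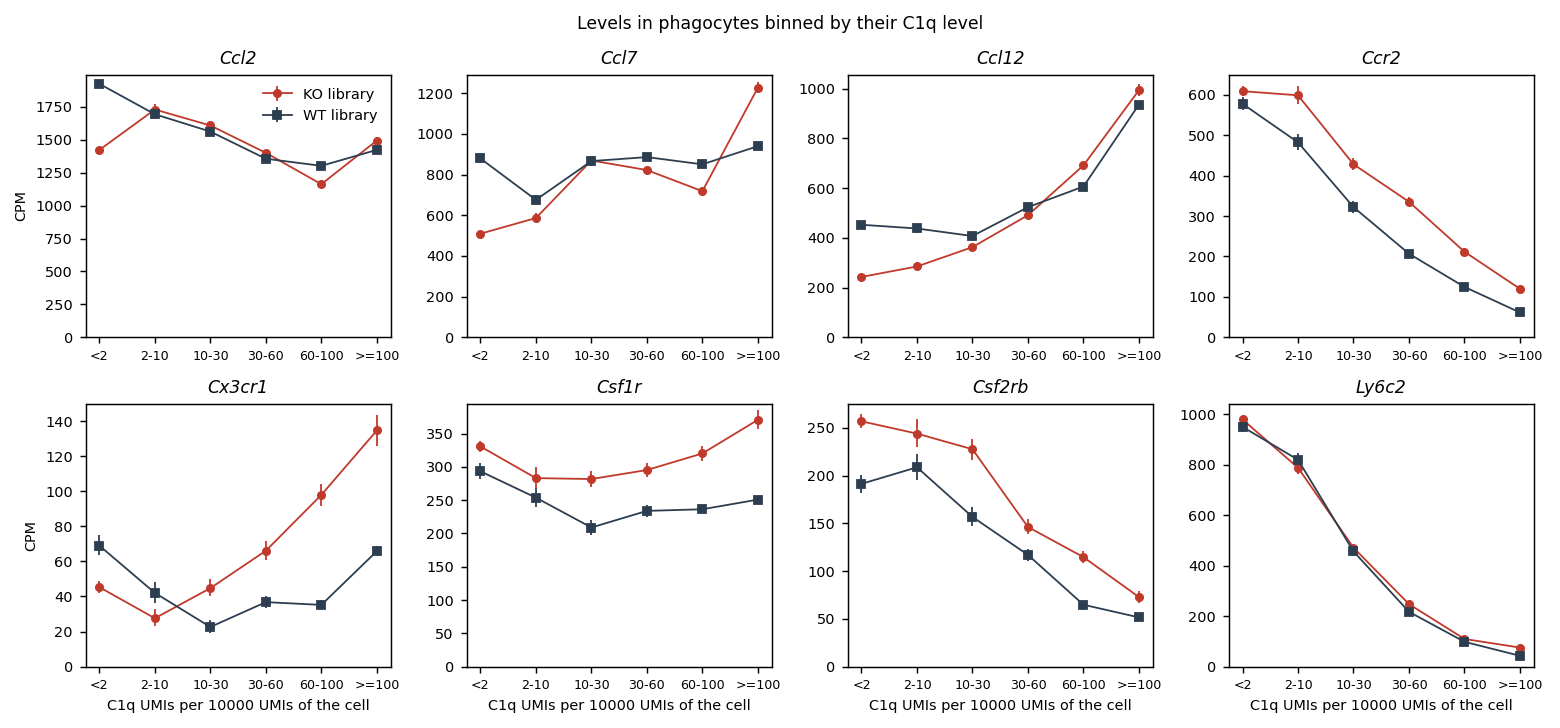
Lines give the CPM of 7 genes and of the marker Ly6c2 in phagocytes split into 6 bins of rising C1q level (x axis, C1q UMIs per 10000 UMIs of the cell), red circles for the KO library and dark squares for the WT library, with 95% Poisson intervals. Ccr2 lines part with rising C1q and reach 119.97 CPM in the KO library and 61.5 CPM in the WT library, while the Ly6c2 lines nearly coincide in the lower 5 bins.

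Of 50 other genes of these pathways, 41 were measured in macrophage-like cells, and 7 of them were at least 1.5-fold higher in the KO library with 0 as much lower, beside 6.56% higher and 5.80% lower over all measured genes of that class. Their median log2 ratio was 0.26, beside -0.01 over all genes. The widest was Ccl24, a chemokine for eosinophils, with 18.9 CPM in the KO library and 4.80 CPM in the WT library (ratio 3.94). Cish and Socs2, cytokine signalling inhibitors that STAT5 induces downstream of CSF2 and other cytokines, had ratios of 3.56 and 3.69. Cish stood at 17.2 CPM in the KO library and 4.83 CPM in the WT library, and Socs2 at 8.90 CPM in the KO library and 2.41 CPM in the WT library. Egr2, a transcription factor of macrophages, had 26.0 CPM in the KO library and 14.4 CPM in the WT library (ratio 1.80). Ccr1, a chemokine receptor of myeloid cells, had 154 CPM in the KO library and 98.6 CPM in the WT library (ratio 1.56). Flt3 and Kit, growth factor receptors of progenitors and dendritic or mast cells, were near 1 CPM in both libraries, with ratios of 2.55 and 2.04.

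In classical monocyte-like cells 40 of the 50 were measured, 4 were higher and 1 was lower by at least 1.5-fold, beside 5.77% higher and 3.42% lower over all measured genes of that class. Cish had 43.2 CPM in the KO library and 12.9 CPM in the WT library (ratio 3.34, 2.8 to 4.01), and Socs2 had 5.41 CPM in the KO library and 2.24 CPM in the WT library (ratio 2.41). Egr2 had a ratio of 1.65, and Cbl, a ubiquitin ligase that downregulates CSF1R, a ratio of 1.51. The 1 lower gene was Ccl8, another chemokine for monocytes, with 29.4 CPM in the KO library and 87.0 CPM in the WT library (ratio 0.338). Among the 8 genes listed for CSF2 receptor signalling, the median log2 ratio was 0.33 in macrophage-like cells and 0.52 in monocyte-like cells, with Jak2, the kinase of the beta chain, at ratios of 1.32 and 1.49 there. Of those 8 genes, 2 were at least 1.5-fold higher in each class. In macrophage-like cells the medians of the other lists ran from 0.04 to 0.64, with 0.55 for other growth factors and receptors. The 0.64 rests on 1 measured gene. In monocyte-like cells they ran from -0.10 to 0.31.

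**Figure D5:**
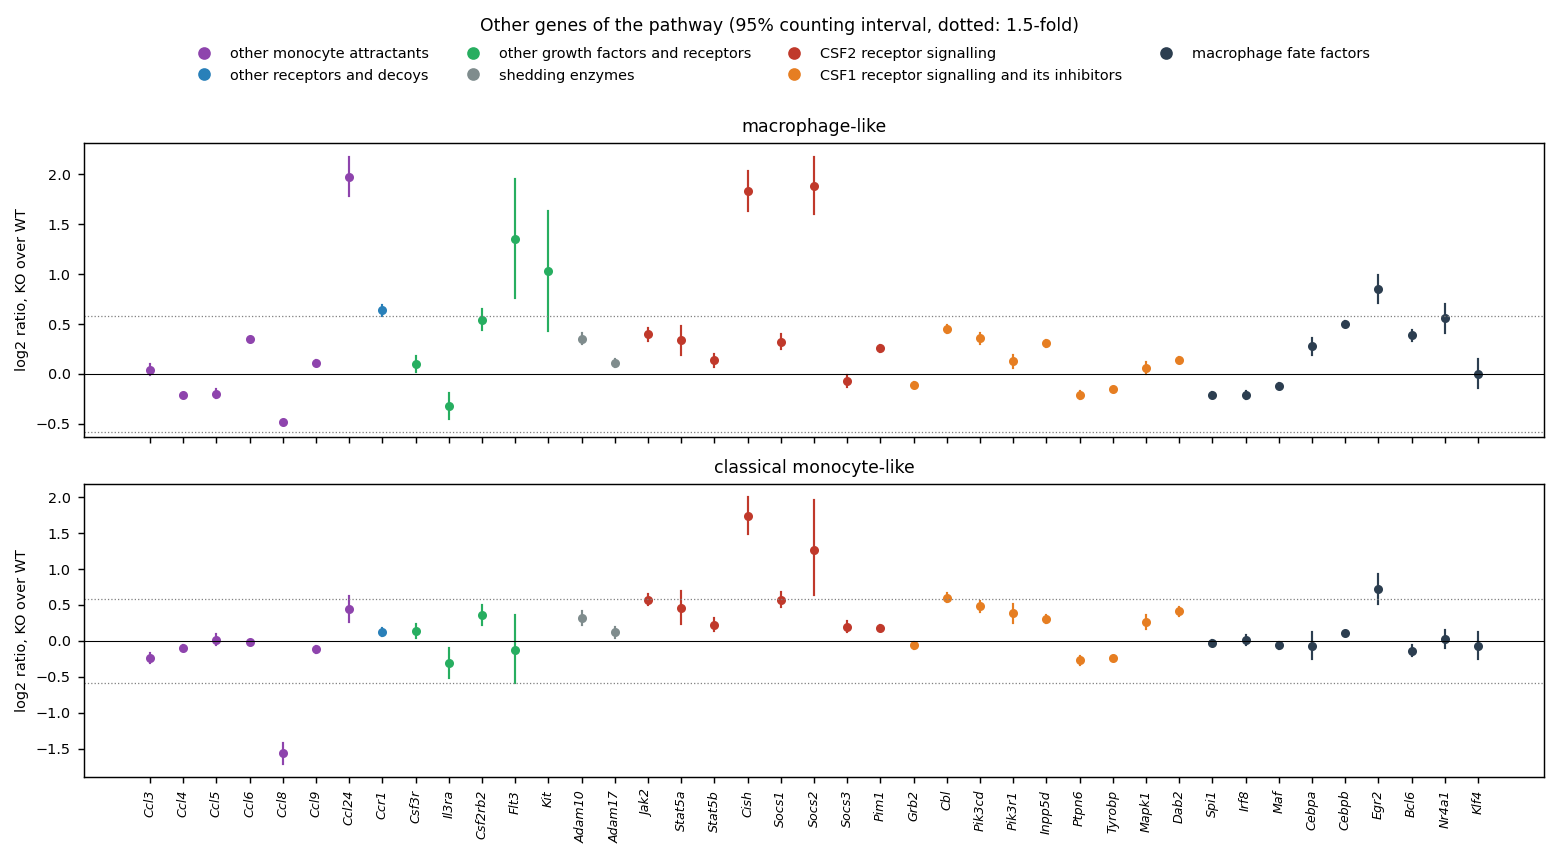
Points give the log2 ratio, KO over WT, of the other pathway genes that were measured, coloured by list, with 95% counting intervals and dotted lines at 1.5-fold; macrophage-like cells are above and classical monocyte-like cells below. Cish and Socs2 lie above the upper line in both classes, and Ccl8 below the lower line in monocyte-like cells.

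Across 24 points, the pairs of a class and a library with at least 100 cells, Pearson correlations of log2(CPM + 5) were computed as a description. These points share libraries and depth. Ccl2, Ccl7 and Ccl12 followed each other with r of 0.963 to 0.978. Csf2ra and Csf2rb followed each other with r of 0.939, and Csf1r followed Csf2ra with 0.83. Ccr2 correlated with no other of the 10 genes above 0.511, and Csf1 with none above 0.382. Among 11319 genes, those closest to Ccl2 were Nos2 (0.958), C3ar1 and Arg1, and those closest to Ccl7 were Stab1 (0.949), Flrt2 and Pf4. Ccl12 was closest to Lpl (0.937), Stab1 and Siglec1. Ccr2 was closest to Otulinl (0.856), Ahnak and Tln1. Cx3cr1 was closest to Vmp1 (0.871), Ikbke and Xdh, and Csf1 to Ifit1bl2 (0.919), Mmp9 and Fam221a. Csf1r was closest to Lrp1 (0.976), Lyz2 and Clec4a3, and Csf2 to Trp73 (0.937), Tnfsf11 and Penk. The CD4 T-like point of the KO library held 219 Csf2 UMIs in 13 cells. CD4 T-like cells of the WT library, 53 in number, gave no point. How far that 1 point sets the Csf2 correlations was not tested. Csf2ra was closest to Pirb (0.977), Gpr35 and Spi1, and Csf2rb to Gpr35 (0.968), Pirb and Csf2rb2.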

How the data were processed

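The authors deposited counts, unnormalized whole-number UMI totals of each gene in every barcode, written by Cell Ranger 7.2.0 per the file headers and on the mm10 build per the submitters' processing notes. The chemistry, annotation, strand setting and any filters have no statement in these sources.

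Cells were called per library: barcodes above 9263 UMIs in the KO library and 16615 in the WT library, plus barcodes of at least 500 UMIs that a Monte Carlo comparison with free RNA (10000 simulations) told apart at a false discovery rate of 0.01. Cells with under 250 genes or over 10% mitochondrial UMIs were left out. Scrublet in scanpy 1.11.5 marked 389 doublets (3.43%) in the KO library and 181 (1.96%) in the WT library, which were removed; loading would give 9.06% and 7.40%, so doublets may remain. Each cell took the class with the highest marker score, at least 0.15 and at least 0.1 above the next, and a Treg-like cell also needed a Foxp3 UMI. UMIs were summed per class and library. A gene was measured with at least 50 UMIs over both libraries, and 1.5-fold was the size counted. The total depth was 202946827 UMIs in the KO library and 235652476 in the WT library. The interval code was tested on simulated counts.

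The 10 genes, the pathway list of 50 genes and the markers were chosen with earlier results of these data known. Named are the 10 genes, pathway genes at least 1.5-fold apart in macrophage-like or monocyte-like cells, and the 3 genes most like each of the 10. Alternatives were other cell filters, doublets kept, stricter gates, Leiden clusters (leidenalg 0.10.2), another scaling, free RNA subtracted, thinning and a lower UMI minimum. Of the pathway genes first listed, 2 are not reported here and were left out of the counts, medians and likeness. Gene positions came from GENCODE on mm10.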

Additional observations from a re-analysis of the deposited data

Results flagged for a closer look

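The level of Csf1 differed in opposite directions in macrophage-like and neutrophil-like cells. Its log2 ratio, KO over WT, was 0.79 in macrophage-like cells (10.4 CPM in the KO library and 5.99 CPM in the WT library) and -0.70 in neutrophil-like cells (1112 CPM in the KO library and 1811 CPM in the WT library). The difference between these ratios was not tested, because each group had 1 library. This comparison was limited to gated classes in which free RNA made up under 25% of the UMIs of the gene and 10 cells held under 50% of them.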

How the results depend on the processing

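In macrophage-like cells 4 of 9 genes were at least 1.5-fold apart under every alternative run there. In classical monocyte-like cells, 0 in the report, the count was 1 with stricter gates, Leiden clusters, median ratio scaling or thinning, 2 with only barcodes above the UMI threshold and 3 without cells holding a macrophage marker UMI. In CD8 T-like cells, 1 in the report, it was 2 with at most 5% mitochondrial UMIs or stricter gates, 3 with doublets kept or Leiden clusters and 4 with free RNA subtracted. Free RNA was 101% to 179% (KO) and 85.1% to 138% (WT) of the Csf1r UMIs there, so levels left after subtraction can be small remainders. Shares of all genes past 1.5-fold (12.4%, 9.19% and 10.2% in these 3 classes) are for the main setting alone. Without such shares under the alternatives, these counts describe only the 10 genes.

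Log2 ratios were recomputed in 9 classes; cDC2-like, CD4 T-like, B-like and melanoma-like cells, other T cells and cells outside the gates were not run. Of the 20 past 1.5-fold in those 9, 20 kept their direction and size past 1.5-fold at 1000 UMIs and under median ratio scaling, 17 with doublets kept, and 13 of the 18 with a value with Leiden clusters. These turned: with only barcodes above the UMI threshold, Cx3cr1 in non-classical monocyte-like cells (0.031) and Csf1 in neutrophil-like cells (0.16, on 19 cells in the KO library and 3 in the WT library); with doublets kept, Ccl2 in Treg-like (0.89) and Csf2ra in NK-like cells (0.068); and Ccl7 in NK-like cells with stricter gates (-0.16) and Leiden clusters (-0.27). Csf2 in CD8 T-like cells, at 0.55, was -0.18 without the highest cell of the KO library and 0.084 without that of each library. Over the CD45+ classes alone the log2 ratios of Cx3cr1 (-0.015) and Csf1r (-0.024) lay below 0. The causes were not tested. The comparisons above the UMI threshold and without cells holding the other class's markers or the most Csf2 were added after seeing the data.

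Few neutrophil-like, NK-like and Treg-like cells limit those ratios, and 1 library per group limits all. No paired analysis was possible because the groups share 1 replicate number and hold 1 library each.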
